A study of Mus musculus with 21 samples.

Results

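Havcr1, Lcn2, Vcam1, Krt8, Krt18, Krt19, Sox9, Cd44, Spp1 and Clu are 10 mouse genes known for their activity in injured tubular cells and in activated parietal epithelial cells of the kidney. They were taken by name from the 27179 genes in tables of read counts of podocyte fractions. All 10 were found, and all 10 passed the filter on low counts that left 16377 genes for testing.

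When the epithelium of the tubule is injured, its cells lose part of their specialised transport functions and return to a simpler program in which they flatten, spread, divide and signal to immune cells. Kidney injury molecule 1 (Havcr1) appears on the surface of proximal tubular cells and binds the phosphatidylserine of dying cells, neutrophil gelatinase-associated lipocalin (Lcn2) is secreted and binds the iron carriers of bacteria, and the simple keratins and the transcription factor Sox9 mark repairing cells. Parietal epithelial cells line Bowman's capsule opposite the podocytes, and when they are activated they gain the hyaluronan receptor Cd44 and migrate onto the glomerular tuft. Healthy podocytes contain the filament vimentin rather than much keratin, so these genes are better known from the neighbours of podocytes than from podocytes themselves.

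The libraries were of male wildtype C57BL/6J mice, 1 library for each mouse. Young mice (n = 6) were 4 months of age and untreated, and middle-aged mice of 19.5 months had been injected for 6 weeks from 18 months of age, either with saline (n = 7) or with 10 mg/kg of MCC950, an inhibitor of the inflammasome protein NLRP3 (n = 8, named NLRP3i in the labels). Age and the injections therefore cannot be told apart between young and saline mice. Below, the words "with age" are short for saline against young and carry this limit. The labels give no batch. Numbers in the sample titles run in a separate range for each group, and what they stand for is not given. Anything tied to them cannot be told apart from the group in any comparison, that of MCC950 with saline included. The methods of the study list fewer control mice of the young age, from a tissue archive, than there are libraries labelled young, so the source of the young mice is uncertain. Saline replicate 6 has no column in the deposited normalized table, and the header of its count column carries a later dataset number than those of all other libraries. Without it, each call of the 10 genes between saline and the other groups stayed. Cells came from digested cortex and were collected on magnetic beads with antibodies to nephrin, a podocyte protein. The libraries held between 27375870 and 84876399 counts, with every saline library deeper than every young library, and genes of the mitochondrial genome took a median of 71.1% of the counts in young, 68.6% in saline and 57.5% in MCC950 libraries. All levels below are CPM, the reads of a gene as a share of its library after TMM scaling, which allows for a few genes taking much of a library.

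The fractions held RNA of other cells beside podocytes. The summed level of 12 podocyte markers was between 768 and 1725 CPM in young, between 303 and 555 CPM in saline and between 402 and 670 CPM in MCC950 libraries, while 8 markers of the loop of Henle and distal tubule summed to between 2476 and 4988 CPM over all 21 libraries. Of the podocyte markers, 11 of 12 were lower in saline than in young libraries (edgeR, adjusted p under 0.05), among them Nphs1, the gene of the nephrin used for collection, at a mean of 42.7 CPM in young and 6.25 CPM in saline. The 10 proximal tubule markers summed to a median of 1804 CPM in young, 1592 CPM in saline and 3188 CPM in MCC950 libraries, and 6 of 10 were higher with MCC950 than with saline. The 10 macrophage and myeloid markers summed to a median of 1447, 2575 and 1988 CPM in the same order. In such bulk fractions, more cells of a type and more RNA per cell cannot be told apart, and the part of cell composition in the results below was not tested beyond the fits that are named. In those fits and in correlations, a list of markers enters as the mean log2 CPM of its genes, which weighs them equally, and not as the sum.

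Of the 10 genes, 6 had a promoter entry in the RefSeq table for GRCm38.p6, and 4 are shown because the comparisons turn on them: the keratin partners Krt8 and Krt18, and Lcn2 and Cd44, whose young and saline libraries did not overlap. Each sequence runs from 250 bases before to 30 bases after the annotated start, 5′ to 3′ on the strand of the gene, with matches to TATAAA (the letters of a TATA box) and GGGCGG (an SP1 site), searched on both strands, in capitals.
Krt8, chr15:102004313-102004592, reverse strand: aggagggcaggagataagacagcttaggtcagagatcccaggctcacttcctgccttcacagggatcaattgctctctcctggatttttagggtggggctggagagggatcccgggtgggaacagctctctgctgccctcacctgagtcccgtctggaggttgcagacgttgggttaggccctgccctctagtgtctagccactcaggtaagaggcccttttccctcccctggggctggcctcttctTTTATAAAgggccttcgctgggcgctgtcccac
Krt18, chr15:102027966-102028245, forward strand: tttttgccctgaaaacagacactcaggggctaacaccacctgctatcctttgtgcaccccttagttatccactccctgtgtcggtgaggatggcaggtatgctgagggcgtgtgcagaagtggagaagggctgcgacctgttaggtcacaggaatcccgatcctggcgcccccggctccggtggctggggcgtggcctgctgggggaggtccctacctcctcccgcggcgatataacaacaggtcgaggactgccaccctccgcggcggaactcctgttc
Lcn2, chr2:32387710-32387989, reverse strand: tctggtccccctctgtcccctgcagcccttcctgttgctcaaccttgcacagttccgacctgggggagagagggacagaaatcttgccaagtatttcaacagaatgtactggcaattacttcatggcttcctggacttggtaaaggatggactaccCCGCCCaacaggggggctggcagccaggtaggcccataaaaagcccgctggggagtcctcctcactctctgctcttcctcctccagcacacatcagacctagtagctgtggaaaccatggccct
Cd44, chr2:102901636-102901915, reverse strand: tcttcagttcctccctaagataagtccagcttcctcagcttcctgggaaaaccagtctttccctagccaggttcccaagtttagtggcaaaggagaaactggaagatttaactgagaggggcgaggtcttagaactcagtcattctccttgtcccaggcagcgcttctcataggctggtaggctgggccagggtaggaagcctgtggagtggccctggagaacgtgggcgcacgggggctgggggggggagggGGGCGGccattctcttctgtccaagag
Krt8 held a pair of overlapping TATAAA matches, 1 on each strand, that begin 3 bases and 1 base before the annotated start, Lcn2 held GGGCGG on the opposite strand 94 bases before it, and Cd44 held GGGCGG just after it. Over all 32851 promoters of the table, 13.6% held TATAAA and 35.7% held GGGCGG. The letters of an AP-1 site, TGANTCA, and of an NF-kB site, GGNNTTTCC, were searched in the same way and matched none of these 4 promoters. Among all promoters of the table, 7.81% held the former and 5.82% the latter. Krt8 (chr15:101996711-102004342, reverse strand) and Krt18 (chr15:102028216-102032026, forward strand) lie head to head with 23874 bases between their starts, and Lcn2 (chr2:32384637-32387739) and Cd44 (chr2:102811141-102901669) both lie on the reverse strand of chromosome 2, in coordinates of GRCm38.

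Per kilobase of exon, the genes differed in level by up to 3 orders of magnitude. Spp1 was the highest, at 242 ± 46.9 CPM per kilobase in young, 287 ± 39.6 in saline and 269 ± 48.6 in MCC950 libraries (mean ± SD; n = 6, 7 and 8). Clu followed at 77.4 ± 12.1, 66.3 ± 12.7 and 64.2 ± 13.1, and Krt8 at 14.0 ± 2.45, 12.9 ± 2.51 and 18.3 ± 3.93 CPM per kilobase. Both Spp1, which encodes the secreted matrix protein osteopontin, and Clu, which encodes the secreted chaperone clusterin, are made by resting tubules too. In young libraries Krt18 came next at 5.72 ± 1.15, above Vcam1 at 2.83 ± 1.49 and Cd44 at 2.79 ± 0.725 CPM per kilobase, whereas in saline libraries the ranges of mean ± SD of Vcam1 (6.74 ± 1.87), Cd44 (6.16 ± 1.15) and Krt18 (4.97 ± 0.715) overlapped. The lowest were Lcn2 (1.23 ± 0.307 in young, 2.62 ± 0.626 in saline), Sox9 (0.964 ± 0.276 and 0.984 ± 0.246), Krt19 (0.558 ± 0.356 and 0.816 ± 0.258) and Havcr1 (0.224 ± 0.178 and 0.686 ± 0.309), of which Krt19 and Havcr1 lay within each other's spread in saline libraries.

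**Figure D1:**
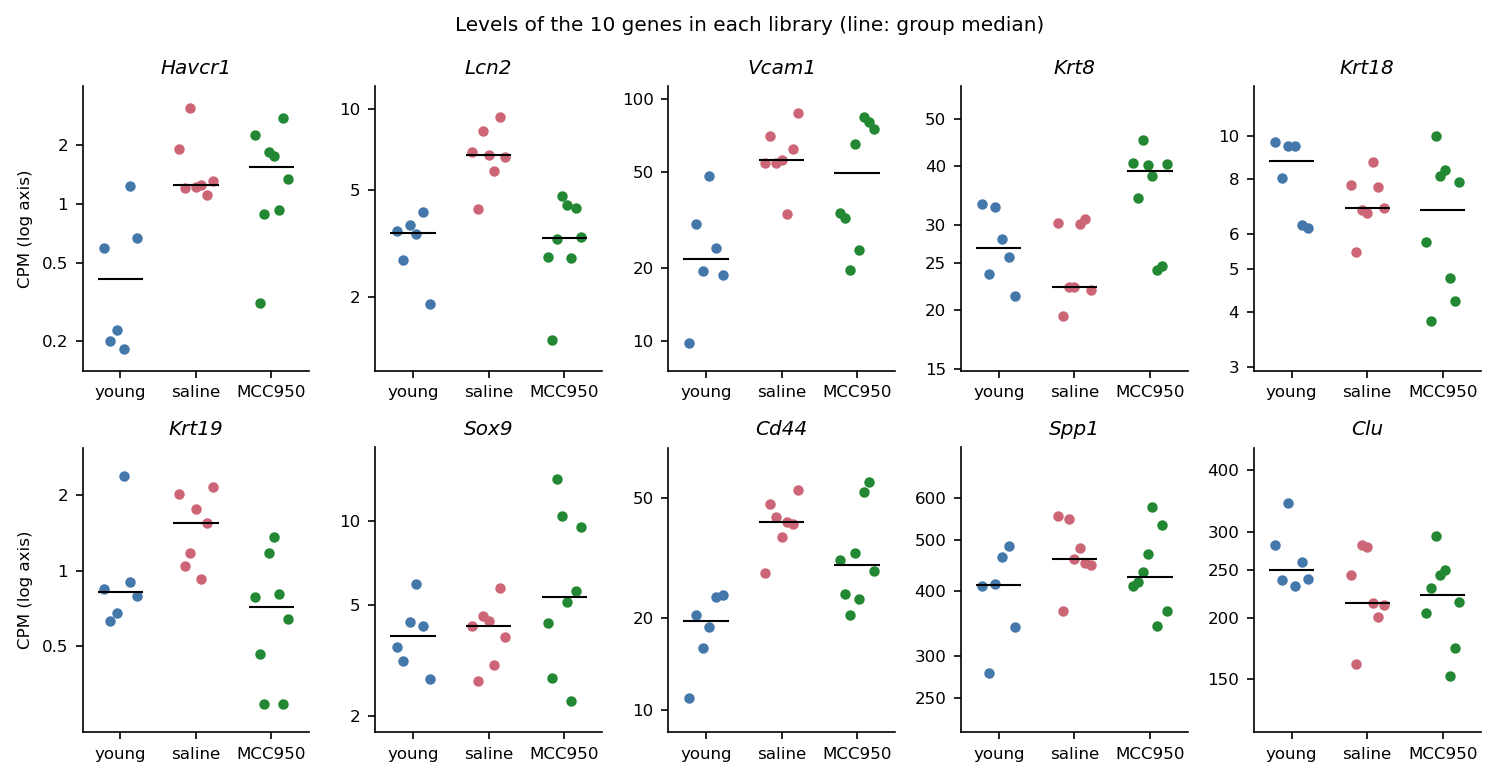
CPM (log axis, a different range for each gene) of the 10 genes in each of 6 young, 7 saline and 8 MCC950 libraries, with 1 point for each library and a line at the group median. Lcn2 and Cd44 are higher in every saline than in every young library, and Lcn2 lies near the young range again with MCC950 (median 3.47 CPM in young, 6.75 CPM in saline, 3.31 CPM in MCC950).

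Between young and middle-aged saline mice, 4 of the 10 genes rose and 0 fell (edgeR quasi-likelihood test, Benjamini-Hochberg adjusted p under 0.05 over 16377 genes). Among all genes tested, 12.2% were higher and 12.4% lower. The 4 genes were Havcr1, Lcn2, Vcam1 and Cd44. At an unadjusted p under 0.05 no further gene was added, and the count of lower genes was 0 also with DESeq2 and at an unadjusted p under 0.05. The groups did not overlap in 2 of the 10 genes, Lcn2 and Cd44, compared with 9.37% of all genes. The median log2 fold change was 0.40 over the 10 genes and 0.02 over all genes.

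With MCC950 against saline, 1 of the 10 genes was higher (Krt8) and 2 were lower (Lcn2 and Krt19), while 11.9% of all genes were higher and 4.86% lower. No gene of the 10 separated these groups without overlap, compared with 1.74% of all genes. The median log2 fold change was -0.10 over the 10 genes and 0.00281 over all genes. Against young, MCC950 libraries were higher in Havcr1, Vcam1, Krt8 and Cd44 (4 of 10, with 21.8% of all genes) and lower in 0 of 10 (with 16.5% of all genes), the latter also with DESeq2 and at an unadjusted p under 0.05. No gene of the 10 separated MCC950 from young libraries without overlap, compared with 7.94% of all genes. The 3 comparisons share libraries, so their values are set side by side and are not independent.

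**Figure D2:**
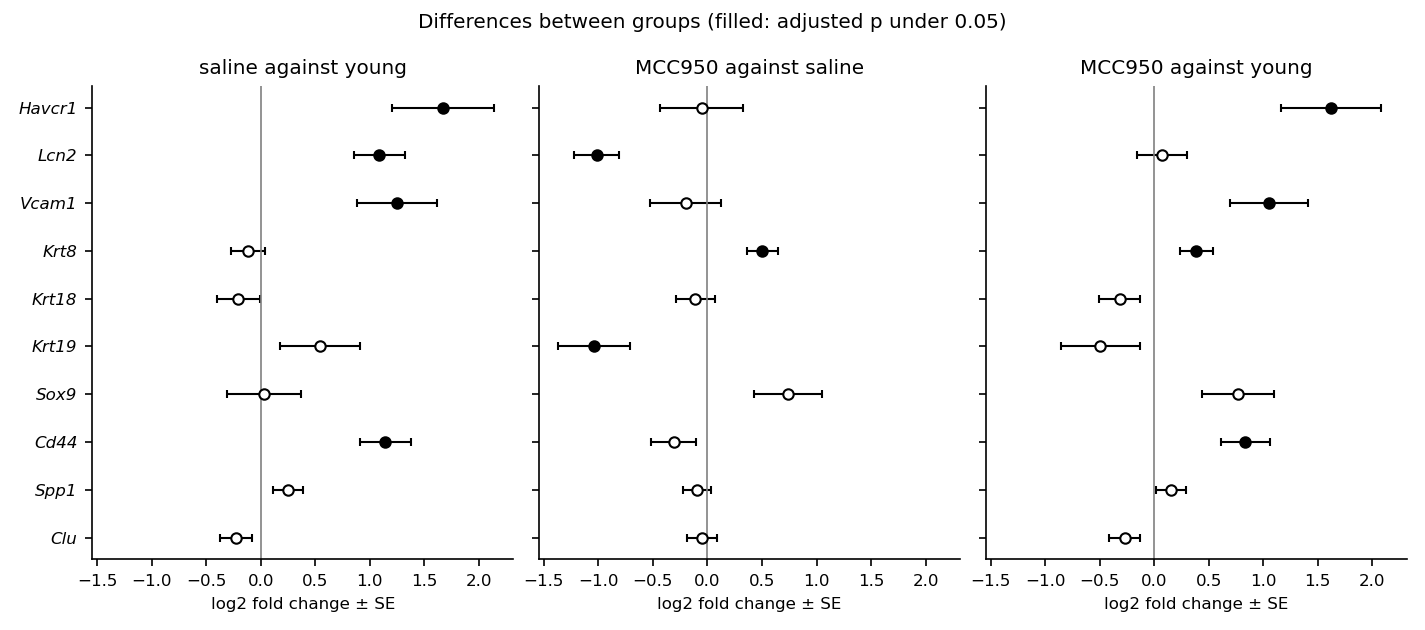
Log2 fold change (x axis) with its standard error of the 10 genes in the 3 comparisons, from 1 edgeR fit of all 21 libraries. Filled points have an adjusted p under 0.05. Havcr1, Lcn2, Vcam1 and Cd44 lie to the right of 0 for saline against young, and with MCC950 against saline Lcn2 (-1.02) and Krt19 (-1.04) lie to the left and Krt8 (0.50) to the right.

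Lcn2 was the member that moved both ways. Its lowest, median and highest levels were 1.88, 3.47 and 4.15 CPM in young, 4.26, 6.75 and 9.40 CPM in saline, and 1.38, 3.31 and 4.77 CPM in MCC950 libraries. Every saline library was above every young library, and 5 of 8 MCC950 libraries were below every saline library. Saline differed from young by a log2 fold change of 1.09 (SE 0.23, edgeR adjusted p = 0.00203) and MCC950 from saline by -1.02 (SE 0.21, edgeR adjusted p = 0.00466). MCC950 and young libraries differed by 0.07 (SE 0.23, edgeR adjusted p = 0.826) on the log2 scale, less than the standard error. Saline replicate 6 held the highest level, and without it saline was 0.99 above young (adjusted p = 0.00613) and MCC950 against saline was -0.94 (adjusted p = 0.0129). Lcn2 is secreted by neutrophils as well as by injured tubules, so neutrophil markers are given beside it. Of 8, 3 (Ngp, Camp and Ltf) were filtered out as too low, and the other 5 summed to between 8.51 and 17.3 CPM in young, between 19.98 and 26.4 CPM in saline and between 11.7 and 32.7 CPM in MCC950 libraries. Most of that sum was the receptor Csf3r, which myeloid cells also make, with means of 11.05, 20.2 and 17.1 CPM, and it alone of the 5 rose with age (0.88, edgeR adjusted p = 0.0139). With MCC950 against saline 0 of the 5 were called, and their median log2 fold change was 0.05. Over the 21 libraries, with group means subtracted, the mean log2 CPM of these 5 markers, in which Csf3r weighs no more than the others, correlated with Lcn2 at r = -0.0083. Their part in the Lcn2 values was not tested. With the proximal tubule markers as a covariate the fall with MCC950 was -0.92 (adjusted p = 0.052), and with scaling to library totals in place of TMM it was -0.59 (adjusted p = 0.0617). The covariate cut calls over all genes too, to 391 higher and 305 lower from 1957 and 796.

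Havcr1 rose with age from very low counts. Young libraries held between 5 and 24 reads of it, saline libraries between 63 and 131 and MCC950 libraries between 14 and 204. In CPM the lowest, median and highest were 0.182, 0.412 and 1.24 in young, 1.11, 1.25 and 3.09 in saline, and 0.311, 1.55 and 2.75 in MCC950 libraries. Of the saline libraries 4 of 7 were above every young library, and the highest young library lay within the saline range. With age the log2 fold change was 1.67 (SE 0.47, edgeR adjusted p = 0.0125) and with MCC950 against saline it was -0.05 (SE 0.38, edgeR adjusted p = 0.941). MCC950 libraries remained 1.62 above young (SE 0.46, edgeR adjusted p = 0.009). The call with age was lost when libraries were thinned to an equal number of counts outside the mitochondrial genome (1.80, adjusted p = 0.0759) and with the macrophage markers as a covariate (1.51, adjusted p = 0.0587). The podocyte, T cell and collecting duct covariates, given below, ended it too. With group means subtracted, Havcr1 correlated with the podocyte markers at r = -0.64 and with the macrophage markers at r = 0.03. Of the 40-base words of its transcripts, 4.64% also occur in Timd2, a neighbour of the same family, so some of its reads may be shared.

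Vcam1 and Cd44 are the 2 surface adhesion molecules of the group. Vcam1 binds integrins of leukocytes and appears on injured tubules, parietal cells and endothelium. Its lowest, median and highest levels were 9.73, 21.9 and 48.1 CPM in young, 33.3, 56.3 and 87.4 CPM in saline, and 19.6, 49.6 and 84.8 CPM in MCC950 libraries. In 6 of 7 saline libraries it was above every young library, and the MCC950 libraries fell apart into 4 between 19.6 and 33.7 CPM and 4 between 65.4 and 84.8 CPM. The log2 fold change was 1.25 (SE 0.37, edgeR adjusted p = 0.0159) with age, -0.20 (SE 0.33, edgeR adjusted p = 0.715) with MCC950 against saline and 1.05 (SE 0.36, edgeR adjusted p = 0.0243) for MCC950 against young. The last of these calls was lost when young replicate 1, 3 or 6 was left out (adjusted p = 0.0505, 0.0603 and 0.0553), when only the groups compared were fitted (adjusted p = 0.057) and with the replicate number as a block (0.75, adjusted p = 0.0546). It was lost in further alternatives too. Of the 15 alternatives other than leaving out 1 library, 8 called it, with log2 fold changes between 0.16 and 1.81 over the 15.

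Cd44, the receptor for hyaluronan and osteopontin that also marks memory T cells and macrophages, had its lowest, median and highest levels at 10.95, 19.7 and 23.8 CPM in young, 28.3, 41.6 and 53.0 CPM in saline, and 20.5, 29.9 and 56.3 CPM in MCC950 libraries. No saline library overlapped the young ones, and 6 of 8 MCC950 libraries were above every young library. The log2 fold change was 1.14 (SE 0.23, edgeR adjusted p = 0.0012) with age, -0.31 (SE 0.21, edgeR adjusted p = 0.321) with MCC950 against saline and 0.83 (SE 0.22, edgeR adjusted p = 0.00627) for MCC950 against young. MCC950 replicates 6 and 7, at 52.2 and 56.3 CPM, were the only MCC950 libraries above the saline median. Without both of them the difference from saline was -0.71. They were picked after the values were seen, as the highest of their group, so a larger fall follows from the choice. No test is drawn from it. With 1 library left out at a time, Cd44 was called for MCC950 against saline in 0 of 21 fits.

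Macrophage and myeloid markers moved with both adhesion genes, and tubule markers ran against them. Over the 21 libraries, with group means subtracted, the macrophage and myeloid markers correlated with Vcam1 at r = 0.84 and with Cd44 at r = 0.69. The proximal tubule markers were at r = -0.72 with Vcam1 and -0.62 with Cd44. Those of the loop of Henle and distal tubule were at -0.70 and -0.65. The other immune lists were mixed. For Vcam1 and Cd44 in turn, T cell markers were at 0.48 and 0.62, B and plasma cell markers at 0.05 and 0.56, and neutrophil markers at -0.08 and 0.26. These values share libraries and depth and are given as a description. With the macrophage and myeloid markers as a covariate the rise with age was 0.46 for Vcam1 (adjusted p = 0.172) and 0.72 for Cd44 (adjusted p = 0.0129). The T cell markers, summing to between 7.24 and 18.6 CPM in young, between 17.6 and 27.6 CPM in saline and between 9.23 and 76.4 CPM in MCC950 libraries, moved with age too. As a covariate (their mean log2 CPM, not the sum), added after the data were seen, they left Vcam1 at 0.45 (adjusted p = 0.67), Cd44 at 0.54 (adjusted p = 0.282), Havcr1 at 1.15 (adjusted p = 0.354) and Lcn2 at 1.05 (adjusted p = 0.101). Calls were lost over all genes in that fit, with 154 higher and 241 lower beside 1996 and 2038 without a covariate. The collecting duct markers, added in the same way, left Vcam1 at 0.73 (adjusted p = 0.246) and Havcr1 at 1.52 (adjusted p = 0.0827), while Lcn2 and Cd44 stayed called. Over all genes that fit called 800 higher and 987 lower. With the podocyte markers as a covariate no gene of the 10 was called with age, a fit in which only 6 genes of 16377 were called at all, and the change was 0.88 for Lcn2, 1.00 for Cd44, 2.27 for Vcam1 and -0.27 for Havcr1.

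**Figure D3:**
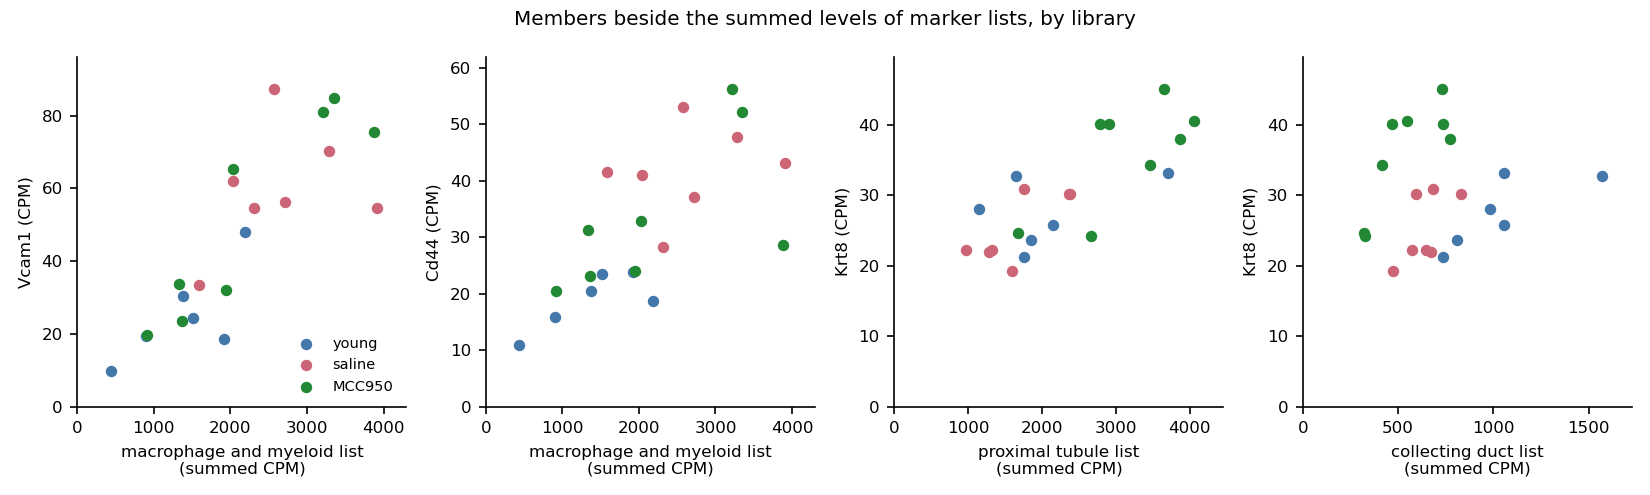
Vcam1 and Cd44 (CPM) against the summed CPM of 10 macrophage and myeloid markers, and Krt8 (CPM) against the summed CPM of 10 proximal tubule and of 9 collecting duct markers, with 1 point for each of 21 libraries. Vcam1 and Cd44 are low where the macrophage sum is low. The MCC950 libraries lie at high proximal tubule sums (1680 to 4052 CPM) beside 968 to 2375 CPM in saline.

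Spp1 and Clu, the most abundant genes of the group, did not pass the test in any comparison. The lowest, median and highest levels of Spp1 were 279, 410 and 487 CPM in young, 366, 461 and 556 CPM in saline, and 342, 425 and 577 CPM in MCC950 libraries, so that 2 of 7 saline libraries were above all young ones. Its log2 fold change was 0.25 (SE 0.14, edgeR adjusted p = 0.204) with age and -0.09 (SE 0.13, edgeR adjusted p = 0.66) with MCC950 against saline. Clu ran the other way with age, with 4 of 7 saline libraries below all young ones: its levels were 233, 250 and 342 CPM in young, 161, 215 and 282 CPM in saline, and 152, 223 and 294 CPM in MCC950 libraries. The log2 fold change of Clu was -0.22 (SE 0.15, edgeR adjusted p = 0.288) with age and -0.05 (SE 0.14, edgeR adjusted p = 0.85) with MCC950 against saline. Against young, MCC950 libraries differed by 0.15 in Spp1 (SE 0.14, edgeR adjusted p = 0.378) and by -0.27 in Clu (SE 0.14, edgeR adjusted p = 0.14). Of the 40-base words of Spp1, 13% are shared with an overlapping transcript of unknown type that has no row of its own in the tables.

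Krt8 and Krt18 encode the type II and type I partners of the simple epithelial filament, in which 1 subunit of each pairs with the other. Neither passed the test with age. Krt8 had its lowest, median and highest levels at 21.3, 26.9 and 33.2 CPM in young and 19.3, 22.3 and 30.9 CPM in saline, and Krt18 at 6.19, 8.78 and 9.73 CPM and at 5.47, 6.89 and 8.72 CPM. The log2 fold changes with age were -0.12 for Krt8 (SE 0.15, edgeR adjusted p = 0.629) and -0.21 for Krt18 (SE 0.20, edgeR adjusted p = 0.483).

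With MCC950 only Krt8 passed. Its levels in MCC950 libraries were 24.2, 39.1 and 45.2 CPM, with 6 of 8 above every saline library, and the log2 fold change against saline was 0.50 (SE 0.14, edgeR adjusted p = 0.0228). Krt18 lay at 3.82, 6.81 and 10.0 CPM, spread on both sides of the saline range, with a log2 fold change of -0.11 (SE 0.18, edgeR adjusted p = 0.712). Against young, the difference was 0.39 for Krt8 (SE 0.15, edgeR adjusted p = 0.0493) and -0.32 for Krt18 (SE 0.19, edgeR adjusted p = 0.194). The difference of Krt8 from young was close to the threshold and was lost with DESeq2 (0.34, adjusted p = 0.0596) and in 16 of the 21 fits that left out 1 library. The Krt8 call against saline ended with the proximal tubule markers (0.19, adjusted p = 0.51) or the T cell markers (0.37, adjusted p = 0.112) as a covariate, when libraries were thinned as above (0.33, adjusted p = 0.152) and when saline replicate 2, 3, 4 or 7 was left out (adjusted p = 0.0521, 0.0526, 0.0577 and 0.051).

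The ratio of Krt8 to Krt18 reads, taken within each library and so free of its scaling, separated the groups further. In young libraries the lowest, median and highest ratios were 2.94, 3.42 and 4.08, in saline libraries 3.19, 3.47 and 4.01, and in MCC950 libraries 4.51, 5.08 and 8.96. All 8 MCC950 libraries were above all 7 saline libraries, and they were also above the highest young library. The mean log2 ratio was 1.75 ± 0.18 in young, 1.81 ± 0.13 in saline and 2.48 ± 0.35 in MCC950 libraries (SD; n = 6, 7 and 8). Saline and young differed by 0.07 (p = 0.423 by exact permutation, two-sided). MCC950 and saline differed by 0.67 (p = 0.000311 by exact permutation, two-sided, which is as low as groups of this size can reach, and 0.000622 after adjustment over 2 comparisons). Leaving out any 1 library kept the second difference between 0.57 and 0.71.

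Some reads of the keratins cannot be assigned with certainty. Of the 40-base words of Krt8 transcripts, 29.1% also occur in Krt8-ps, a processed pseudogene with no row in the count tables, and 3.28% on the opposite strand in an overlapping noncoding gene. Of those of Krt18, 3.29% occur in another processed pseudogene. The aligner does not split reads over introns, and how reads with several alignments were counted is not given in the sources used here. The proximal tubule markers, like the ratio, had their highest median with MCC950, but their sums overlapped between groups where the MCC950 ratios did not. They ran from 1150 to 3710 CPM in young, 968 to 2375 CPM in saline and 1680 to 4052 CPM in MCC950 libraries. The part of these markers in the ratio was not tested.

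**Figure D4:**
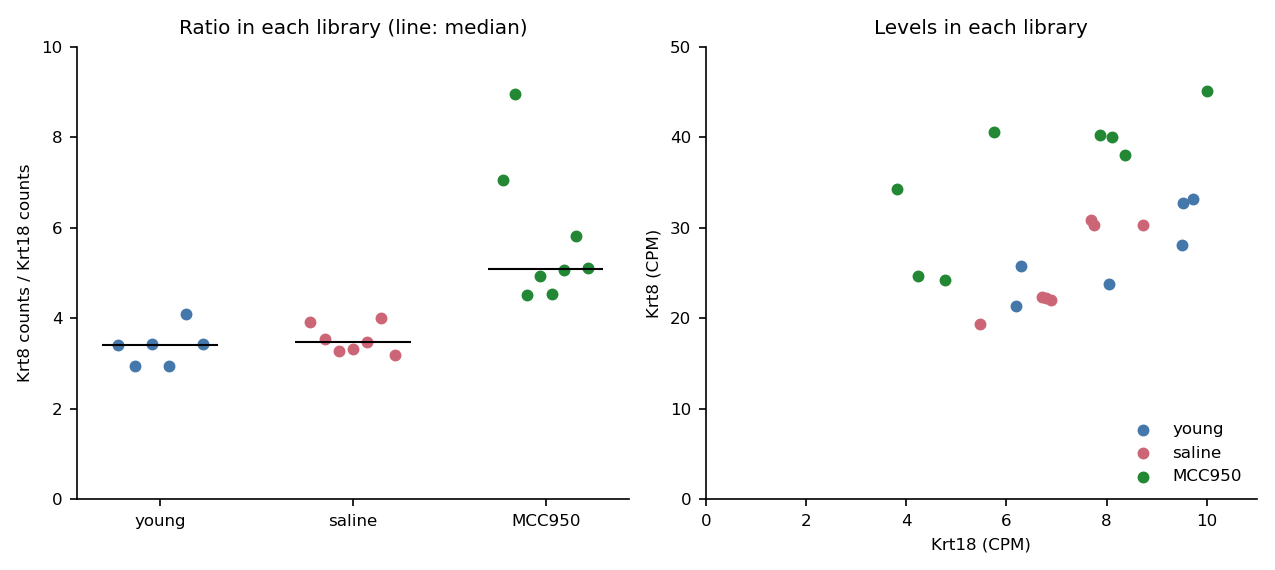
Left, ratio of Krt8 to Krt18 read counts (y axis from 0) in each young, saline and MCC950 library, with a line at the median. Right, Krt8 against Krt18 levels in CPM in the same libraries. The MCC950 ratios (4.51 to 8.96) lie above all saline (3.19 to 4.01) and young (2.94 to 4.08) ratios.

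Krt19, a type I keratin of ducts and regenerating epithelium, was low throughout. Its lowest, median and highest levels were 0.63, 0.82 and 2.37 CPM in young, 0.925, 1.54 and 2.14 CPM in saline, and 0.296, 0.715 and 1.36 CPM in MCC950 libraries, with as few as 14 reads in a library. In 6 of 8 MCC950 libraries it was below every saline library. With MCC950 against saline the log2 fold change was -1.04 (SE 0.33, edgeR adjusted p = 0.0363), and it was 0.55 (SE 0.37, edgeR adjusted p = 0.299) with age and -0.49 (SE 0.36, edgeR adjusted p = 0.291) for MCC950 against young. Leaving out 1 library, any of 8 in turn (saline replicates 1, 4 and 7 and MCC950 replicates 1, 2, 3, 7 and 8), moved the adjusted p of the fall to between 0.0502 and 0.065. The proximal tubule covariate, which cut calls over all genes as given above, left -0.80 (adjusted p = 0.298) and scaling to library totals -0.57 (adjusted p = 0.165). These were not the only losses, as 10 of the 15 alternatives other than leaving out 1 library called the fall. Young replicate 4, at 2.37 CPM, was above all saline libraries, and without it the rise with age was 0.96 (adjusted p = 0.0454). It was the highest of its group, so a larger rise follows from leaving it out. Krt19 was called with age in 1 of 21 fits that left out 1 library and in 0 of the 15 other alternatives.

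Sox9, a transcription factor of the developing and repairing nephron, did not pass the test in any comparison. Its lowest, median and highest levels were 2.72, 3.87 and 5.94 CPM in young, 2.67, 4.21 and 5.75 CPM in saline, and 2.27, 5.37 and 14.2 CPM in MCC950 libraries. The MCC950 group was the most spread, with 3 of 8 libraries (9.52, 10.5 and 14.2 CPM) above all saline and 1 below. The log2 fold change was 0.03 (SE 0.34, edgeR adjusted p = 0.961) with age and 0.74 (SE 0.31, edgeR adjusted p = 0.106) with MCC950 against saline, and without MCC950 replicate 6, the lowest, the latter was 0.87 (adjusted p = 0.0361). Against young it was 0.77 (SE 0.33, edgeR adjusted p = 0.0733), and it passed without MCC950 replicate 2 (0.88, adjusted p = 0.0325) or 6 (0.90, adjusted p = 0.0252). Replicates 6 and 2 were the lowest of the MCC950 group, so a larger rise follows from leaving either out. With 1 library left out at a time, Sox9 was called against saline in 1 of 21 fits and against young in 2 of 21.

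Among the 20 further genes of injured tubules, 19 were tested, Krt20 being too low. With age 3 rose and 0 fell (1 fell by DESeq2, and 1 at an unadjusted p under 0.05), beside 12.2% higher and 12.4% lower of all genes. The 3 were Plin2, a coat protein of lipid droplets (1.12, SE 0.15, adjusted p = 4.32e-05), S100a6, a calcium-binding protein (0.77, SE 0.13, adjusted p = 0.000228), and Lgals3, the lectin galectin 3 (0.64, SE 0.15, adjusted p = 0.00318). With MCC950 against saline, where 11.9% of all genes were higher and 4.86% lower, 1 was higher, the neutrophil chemokine Cxcl1 (0.73, SE 0.21, adjusted p = 0.0248), and 1 lower, S100a6 (-0.49, SE 0.12, adjusted p = 0.00967). S100a6 was at a mean of 12.8 CPM in young, 21.8 CPM in saline and 15.6 CPM in MCC950 libraries. Against young 5 were higher with MCC950, beside 21.8% of all genes, led by Cxcl1 (0.97), Plin2 (0.95) and the TWEAK receptor Tnfrsf12a (0.67), and 1 was lower, Krt7 (-0.52), beside 16.5% of all genes. The median log2 fold change of the 19 was 0.27, -0.15 and 0.18 in the 3 comparisons.

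All 12 markers of parietal epithelium were tested, and 0 rose in any comparison by edgeR or DESeq2, with 1 higher with age, 1 with MCC950 against saline and 0 against young at an unadjusted p under 0.05. With age 4 of 12 fell, beside 12.4% of all genes, Ncam1 (-0.86, adjusted p = 0.0212), Akap12 (-0.64, adjusted p = 0.022) and the nephron transcription factor Pax2 (-0.47, adjusted p = 0.021) leading. With MCC950 against saline 3 of 12 were lower, beside 4.86% of all genes: Scin, the actin-severing protein scinderin (-0.92, SE 0.16, adjusted p = 0.00201), the surface protein Cd24a (-0.34, adjusted p = 0.0292) and the tetraspanin Cd9 (-0.30, adjusted p = 0.0157). Against young 7 of 12 were lower, beside 16.5% of all genes, with Cdh6 (-1.06), Scin (-1.05) and Ncam1 (-0.81) at the head. Cd74, the invariant chain that immune cells make in quantity and the highest of the list, did not pass with age (0.64, SE 0.28, adjusted p = 0.0952). Pax8 (-0.34, adjusted p = 0.0674) and Cldn1 (-0.13, adjusted p = 0.716), both markers of resting parietal cells, did not pass with age.

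Of 16 ligands, receptors and enzymes that act with the 10 genes, 13 were tested, and Has1, Has2 and Mmp7 were too low. With age the gelatinase Mmp9, which binds to Cd44, rose (2.43, SE 0.46, adjusted p = 0.00068), as did Itgb7, a chain of a leukocyte integrin that binds to Vcam1 (0.55, adjusted p = 0.039). The hyaluronidases Hyal1 (-0.87, adjusted p = 0.00636) and Hyal2 (-0.61, adjusted p = 0.00182) and the osteopontin receptor chain Itgb3 (-0.54, adjusted p = 0.0279) fell, which makes 2 of 13 higher and 3 of 13 lower beside 12.2% and 12.4% of all genes. With MCC950 against saline 0 of 13 were called by edgeR or DESeq2, while an unadjusted p under 0.05 was found for 1 gene in each direction. Against young, where 21.8% of all genes were higher and 16.5% lower, 2 of 13 were higher, Timd4, a phosphatidylserine receptor related to Havcr1 (3.65, SE 1.20, adjusted p = 0.0211), and Mmp9 (1.85), and 6 were lower, led by the hyaluronan synthase Has3 (-0.95), Itgb3 (-0.72) and Hyal1 (-0.67). The Timd4 value rests on MCC950 replicate 8, which held 506 reads of it beside 37 or fewer in every other library.

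Within groups, some of the 10 genes rose and fell with each other. Over the 21 libraries with group means subtracted, 29 of 45 pairs had a positive r. The highest were Krt8 with Krt18 (0.76), Krt18 with Sox9 (0.71) and Vcam1 with Cd44 (0.71), and the lowest were Krt8 with Cd44 (-0.79) and Cd44 with Clu (-0.69). Krt8 and Clu both followed the collecting duct markers (r = 0.81 each), and Cd44 ran against them (-0.73). These are descriptions over libraries that share preparation and depth, and all levels within a library are shares of 1 total.

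**Figure D5:**
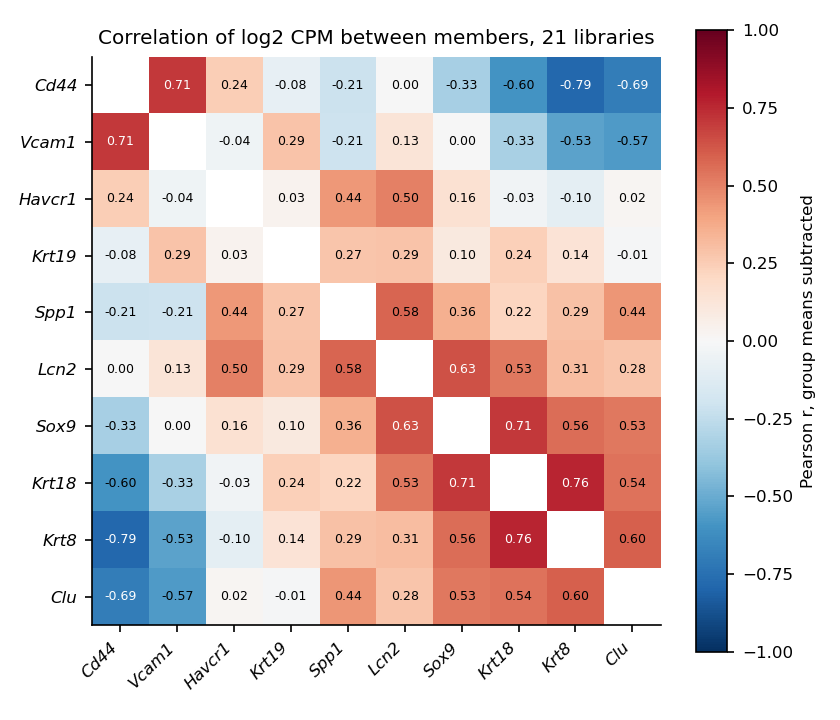
Pearson r of log2 CPM between each pair of the 10 genes over 21 libraries, with group means subtracted (colour from -1 to 1). Krt8, Krt18, Sox9 and Clu are positive with each other (0.53 to 0.76), and Cd44 is negative with all 4 (-0.79 to -0.33).

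The genes whose levels ran most like each member, among 12414 or 12415 genes of at least 1 log2 CPM, were of several kinds. For Vcam1 they were Entpd1 (r = 0.94), Ggta1 (0.93) and Lrp1 (0.92), and for Cd44 Cd300a (0.92), Grk3 (0.91) and the tumour necrosis factor receptor Tnfrsf1b (0.91). Krt8 ran with Lrig3 (0.91), Rdh13 (0.90) and Smtnl2 (0.90), Krt18 with Ifnlr1 (0.84), Foxq1 (0.84) and Spry1 (0.84), and Clu with Cxadr (0.90), Mycbpap (0.89) and Camta1 (0.88). Sox9 ran with the stress genes Gadd45a (0.92) and Rcan1 (0.91) and with Rnd3 (0.88). Lower likeness was found for Lcn2 (Med27, 0.79; Rps19bp1, 0.74; Scg5, 0.73), Krt19 (Vamp5, 0.78; Ppp2r3c, 0.77; Gpi1, 0.74) and Spp1 (Piga, 0.76; Hddc3, 0.75; Rassf6, 0.74). Havcr1 ran with Sec61b (0.94), a subunit of the protein channel of the endoplasmic reticulum, far above its next gene Mdp1 (0.82) and Psme3ip1 (0.80), and no 40-base word of the transcripts of Havcr1 occurs in Sec61b.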

How the data were processed

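mRNA of podocyte fractions of individual mice was sequenced from TruSeq libraries. Per the authors' methods, adapters were removed by TrimGalore, Bowtie2 placed the reads on mm10, and featureCounts gave the deposited counts, whole reads for each of 27179 Entrez genes in 21 libraries. The annotation release, strand setting and handling of reads with several alignments are not given in the sources used here. The deposited normalized table lacks saline replicate 6 and was not used.

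Samples were grouped by their labels. Symbols came from RefSeq (25275 genes) and GENCODE (18), with exon lengths from GENCODE M21 on GRCm38. For 16377 genes kept by filterByExpr, the quasi-likelihood F test of edgeR (4.0.16, R 4.3.3) was run on the counts with TMM scaling, with all 3 groups in 1 fit and Benjamini-Hochberg adjustment. Standard errors were the fold change divided by the root of F. The workflow was tested on simulated data. log2 CPM used a prior count of 2. Marker lists entered covariate fits and correlations as the mean log2 CPM of their tested genes. The Krt8 to Krt18 ratio used counts plus 0.5 and an exact permutation test in scipy 1.17.1 (Python 3.11.15, numpy 2.4.6, pandas 2.3.3, matplotlib 3.10.9). Alternatives were DESeq2 1.42.0, other scaling and filters, thinning to 5804891 counts outside the mitochondrial genome, marker covariates, a replicate block and leaving out each library. Shared 40-base words were counted in GENCODE transcripts.

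The 10 genes and all lists were chosen with earlier results of these data known. From each companion list up to 3 called genes for each direction and comparison, of largest change, are named, and for likeness the 3 genes of highest r. Krt20, Cd74, Pax8 and Cldn1, and the genes filtered out, are named beside them and were chosen after their values were seen.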

Additional observations from a re-analysis of the deposited data

Results flagged for a closer look

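In 33 tests of single libraries against the rest of their group (Dixon's ratio at the 95% level, 10 genes and the keratin ratio in 3 groups), 2 libraries stood apart, and chance alone flags about 1 in 20 groups. Lcn2 in MCC950 replicate 2 was 1.38 CPM, with the next lowest MCC950 library at 2.80 CPM. Krt19 in young replicate 4 was 2.37 CPM, with the next highest young library at 0.898 CPM.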

How the results depend on the processing

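With 1 library left out at a time, saline against young gave 4 to 5 genes higher and 0 lower, MCC950 against saline 0 to 2 higher and 1 to 2 lower, and MCC950 against young 2 to 5 higher and 0 lower. Lcn2 kept both of its calls and Cd44 and Havcr1 their calls with age in all 21 such fits. The keratin ratio difference stayed between 0.57 and 0.71 for MCC950 against saline and between 0.031 and 0.13 for saline against young. Log2 fold changes that crossed 0 in such fits were those of Sox9 for saline against young (-0.0809 to 0.16), Havcr1 for MCC950 against saline (-0.24 to 0.17), Clu for MCC950 against saline (-0.13 to 0.0161), Lcn2 for MCC950 against young (-0.0697 to 0.19). None of the sign changes here concerned a gene called in that comparison, except Havcr1 with the podocyte covariate and Cd44 with the collecting duct covariate. The 4 called higher for saline against young became 0 with the podocyte covariate, 2 with the macrophage covariate, 0 with the T cell covariate, 2 with the collecting duct covariate. The 1 called higher for MCC950 against saline became 2 with scaling to library totals, 0 with thinning, 0 with the proximal tubule covariate, 0 with the T cell covariate, 2 with the collecting duct covariate, 2 with MCC950 replicates 6 and 7 left out. The 2 called lower for MCC950 against saline became 0 with scaling to library totals, 0 with the proximal tubule covariate, 1 with the macrophage covariate, 1 with the T cell covariate. The 4 called higher for MCC950 against young became 2 with only the 2 groups in the fit, 2 with thinning, 0 with the podocyte covariate, 1 with the T cell covariate, 2 with the collecting duct covariate. For saline against young the log2 fold change changed sign with scaling to library totals in Sox9 (-0.0295), with the proximal tubule covariate in Sox9 (-0.00651), with the podocyte covariate in Havcr1 (-0.27), Spp1 (-0.00308), Clu (0.0237), with the macrophage covariate in Krt8 (0.16), Krt18 (0.0664), with the T cell covariate in Krt8 (0.15), Clu (0.15), with the collecting duct covariate in Krt8 (0.29), Krt18 (0.27), Clu (0.15). For MCC950 against saline the log2 fold change changed sign with scaling to library totals in Havcr1 (0.39), Vcam1 (0.29), Krt18 (0.28), Cd44 (0.14), Spp1 (0.34), Clu (0.36), with the proximal tubule covariate in Havcr1 (0.00337), Vcam1 (0.64), Cd44 (0.15), with the podocyte covariate in Havcr1 (0.42), with the macrophage covariate in Havcr1 (0.00499), with the T cell covariate in Havcr1 (0.14), Vcam1 (0.0202), with the collecting duct covariate in Krt18 (0.0786), Clu (0.12), with MCC950 replicates 6 and 7 left out in Clu (0.00800). For MCC950 against young the log2 fold change changed sign with scaling to library totals in Clu (0.0564), with the replicate block in Lcn2 (-0.0167), with the podocyte covariate in Lcn2 (-0.0842), Spp1 (-0.0230), with the collecting duct covariate in Krt18 (0.35), Cd44 (-0.00477), Clu (0.27), with MCC950 replicates 6 and 7 left out in Lcn2 (-0.0285). Scaling to library totals moved the median log2 fold change of all genes from 0.00281 to 0.42 for MCC950 against saline and from 0.08 to 0.44 for MCC950 against young, and the share of higher genes among calls from 71.1% to 99.1% and from 56.9% to 90.7%. The T cell and collecting duct covariates and the fit without MCC950 replicates 6 and 7 were chosen after seeing the data. Over all genes, the T cell covariate left 154 higher and 241 lower for saline against young. The proximal tubule covariate left 391 higher and 305 lower for MCC950 against saline. The cause of the changes was not tested. Libraries of the same number did not pair (r of their deviations between -0.061 and 0.35 over 6 pairs of young and saline, and between -0.14 and 0.33 over 7 pairs of saline and MCC950), and the replicate block left 4 genes higher for saline against young, 1 higher and 2 lower for MCC950 against saline and 3 higher for MCC950 against young (Vcam1 0.75, adjusted p = 0.0546), with ratio differences of 0.092 and 0.69 (exact sign-flip p = 0.344 and 0.0156). Depth limits Havcr1 and Krt19, whose reads went as low as 5 and 14 for each library.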
